A study of Mus musculus with 2 samples.

Results

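The LAG3, TIM-3 and TIGIT checkpoint axes were followed through 9 genes, taken by symbol from the 32285 genes of the count matrices. The receptors were Lag3, Havcr2 (which encodes TIM-3), Tigit, Cd96 and Cd226, the ligands were Lgals9 (galectin-9), Pvr and Nectin2, and Vsir encodes VISTA. All 9 genes had UMIs in both libraries, the tags that let each captured RNA molecule be counted once. In cells that passed the filters, the totals ran from 51 UMIs of Tigit to 10456 of Lgals9 in the Lmo7+/+ library and from 60 of Tigit to 7728 of Lgals9 in the library labelled Lmo7-/-.

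LAG3, TIM-3 and TIGIT are inhibitory receptors that accumulate on T cells under lasting antigen stimulation, and antibodies against each have been tested in cancer. LAG3 binds MHC class II, TIM-3 binds galectin-9 among other partners, and TIGIT competes with the activating receptor CD226 for the nectin family ligands PVR and NECTIN2, while CD96 also binds PVR. VISTA is a B7-related inhibitory molecule found mostly on myeloid cells, and TIM-3 is also known on dendritic cells and macrophages.

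MC38, a colon cancer line of mouse origin, was placed under the skin of female C57BL/6 mice 6 to 8 weeks old, and the live cells of the resulting tumors were sorted for single-cell RNA sequencing. There was 1 library from Lmo7+/+ hosts and 1 from Lmo7-/- hosts, whose LMO7 was deleted in the whole body, while the tumor cells of both groups came from the same unmodified line. The number of mice behind each library was not given in the sources used here. A single library per genotype permits no test of genotype, and the exact 95% intervals given with the values cover counting error only.

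The Lmo7+/+ library held 16208 droplets called as cells and 98582479 UMIs, and the library labelled Lmo7-/- held 15163 droplets and 80648345 UMIs, against about 10000 live cells loaded according to the labels. After filtering, 13542 and 11860 cells were kept, with a median of 4535.5 and 4304.5 UMIs per cell. The libraries shared 279 barcodes, carried by 227 and 214 of the kept cells. Lmo7 itself did not separate the libraries, since all named host classes together had 34 UMIs (1.26 CPM) and 30 UMIs (1.13 CPM), and the label therefore has no check in these data. Tumor cell-like clusters were recognized by their chromosome-wide expression profile together with less than 20 CPM of Ptprc, a leukocyte gene. The profile was itself built from the clusters of these data below that Ptprc limit, so it is no independent check of the name. The epithelial markers of the line were nearly absent in tumor cell-like cells (74.0 and 69.0 CPM for 14 markers summed, with Krt7, Cldn3, Cldn4 and Cldn7 at 0 in the library labelled Lmo7-/-). The type 1 dendritic-like cluster (cDC1) was led by Xcr1 and Clec9a but also by Il2rb, Gzmb, Gzmf and Thy1, and it held T cell markers at 455 and 267 CPM. The type 2 dendritic-like cluster (cDC2) was led by Ptgs2, Mgl2 and Cdh1.

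Levels were obtained by summing the UMIs of a gene over the cells of a class and are given as CPM, the UMIs of the gene in 1000000 UMIs of that class. Where a pair of values follows, the Lmo7+/+ library stands first. A log2 ratio is that of the library labelled Lmo7-/- over the Lmo7+/+ library. A gene was counted in a class where both libraries together held at least 20 UMIs, and past the fold where the log2 ratio was at least 0.5 in size.

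**Figure D1:**
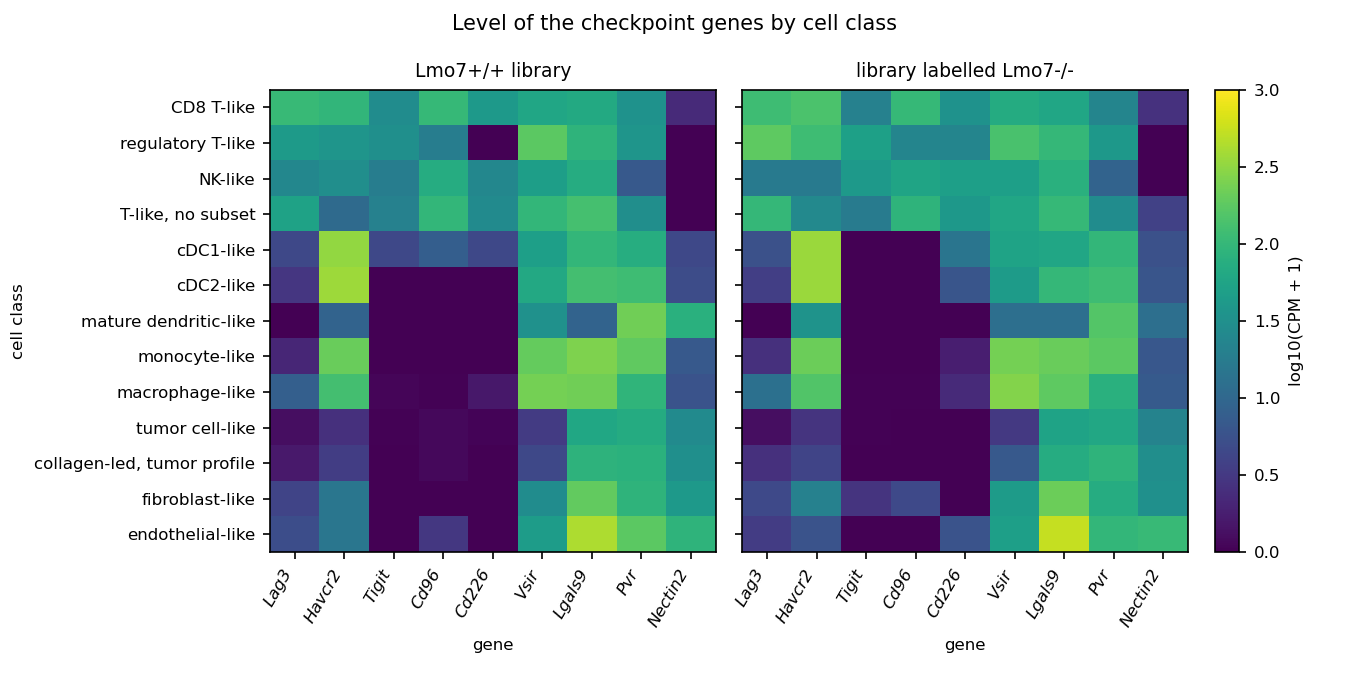
Level of the 9 genes (columns) in 13 cell classes (rows) of each library, as log10(CPM + 1), on a colour scale from 0 to 3. Tigit and Cd96 stood out in the T-like and NK-like rows, Havcr2 and Vsir also in the myeloid rows, Nectin2 in the tumor and stromal rows, and Lgals9 was highest in the endothelial-like row of both libraries.

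For each of the 9 genes, the class that carried the most UMIs was the same in both libraries. Of all UMIs of a gene in the kept cells, CD8 T-like cells carried 43.1% and 40.0% of Tigit, 47.9% and 59.2% of Cd96, and 41.9% and 33.9% of Cd226. Macrophage-like cells carried 80.4% and 83.7% of Vsir, 68.1% and 74.3% of Havcr2, and 42.4% and 45.4% of Lag3, of which CD8 T-like cells carried 23.0% and 25.04%. Tumor cell-like cells carried 74.8% and 64.3% of Nectin2 and 52.0% and 44.0% of Pvr, of which macrophage-like cells carried 26.2% and 31.0%. Lgals9 was spread, with 46.2% and 50.1% in macrophage-like and 31.6% and 26.9% in tumor cell-like cells. These shares depend on the number of cells of each class, and the library labelled Lmo7-/- held more macrophage-like cells (3717 and 4337) and fewer tumor cell-like cells (6335 and 4601). Clusters that could not be named (1026 and 831 cells) carried 18.0% and 11.6% of Lag3 9.74% and 7.90% of Havcr2, and 10 of 51 and 12 of 60 Tigit UMIs, among them 212 cells led by T cell genes that also held markers of another lineage.

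Lag3, a CD4-related receptor that binds MHC class II, was high in T-like and low in macrophage-like cells. CD8 T-like cells (245 and 377 cells) had 83 and 140 Lag3 UMIs, or 105 CPM (84.0 to 131) and 115 CPM (97.1 to 136). The log2 ratio was 0.13 (-0.27 to 0.54), so that no difference was detectable at this depth, and it ran from -0.02 to 0.27 over 14 alternatives. Regulatory T-like cells (66 and 74 cells) had 7 and 32 Lag3 UMIs, or 41.7 CPM (16.8 to 86.0) and 177 CPM (121 to 250), which gives a log2 ratio of 2.08 (0.88 to 3.51). The Lag3 UMIs of the regulatory T-like cells came from 5 and 18 cells, with at most 3 and 6 UMIs in 1 cell. T cell markers summed to 5860 and 6538 CPM and the macrophage genes C1qa, C1qb, C1qc and Apoe to 191 and 133 CPM in these cells. With a stricter cell filter the ratio in regulatory T-like cells was 0.89 with an interval from -0.49 to 2.43, and over all alternatives it ranged from 0.89 to 2.89.

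T-like cells whose subset could not be named, led by S1pr1 and Ifit3 in one cluster and by Penk and Ccr7 in another, had Lag3 at 52.4 and 99.2 CPM, a log2 ratio of 0.92 (0.03 to 1.87). By cluster, the levels were 86.7 and 128 CPM in the Penk-led one (0.56, -0.40 to 1.59) and 13.9 and 46.5 CPM, from 2 and 6 UMIs, in the S1pr1-led one (1.74, -0.74 to 5.08), and both intervals included 0. NK-like cells held 4 and 2 Lag3 UMIs (23.8 and 16.1 CPM). Plasmacytoid dendritic-like cells, a class known to carry LAG3, were named in a single clustering only and held 5 and 2 UMIs in 16 and 12 cells, which corresponds to 126 CPM (41.0 to 295) and 85.6 CPM (10.4 to 309). In cDC1-like and cDC2-like cells Lag3 had 1 UMI per library each, and in mature dendritic-like cells it was at 0 in both libraries, which allows up to 24.0 and 33.9 CPM. Among the T-like classes of the library labelled Lmo7-/-, regulatory T-like, CD8 T-like and unnamed T-like cells followed each other in Lag3 level with intervals that overlapped, and in the Lmo7+/+ library CD8 T-like cells came first, with an interval that overlapped that of the regulatory T-like cells only narrowly.

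Macrophage-like cells had a low Lag3 level, with 153 UMIs in 142 of 3717 cells and 254 UMIs in 223 of 4337 cells. The levels were 7.13 CPM (6.04 to 8.35) and 11.8 CPM (10.4 to 13.3), against 0.289 and 0.285 CPM in tumor cell-like cells. T cell markers summed to 8.15 and 10.0 CPM in macrophage-like cells, so that 100 UMIs of T cell markers went with 87.4 and 118 Lag3 UMIs there, against 1.63 and 1.61 in CD8 T-like cells. The log2 ratio in macrophage-like cells was 0.72 (0.43 to 1.02), and it was positive under all 14 alternatives, from 0.45 to 0.91. It was 0.45 without the cluster led by H2-M2 and Il18bp, which had the highest Lag3 level (16.5 and 19.96 CPM) and comprised 551 and 1523 cells. Within clusters the ratio was largest in cycling macrophage-like cells, at 4.03 and 8.46 CPM (1.07, 0.35 to 1.81), and it was 0.27 (-0.20 to 0.77) within the H2-M2-led cluster. Only in the cycling cluster did the interval leave out 0. The clusters led by Ifitm1, H19 and Ifit3 had ratios of 0.50, 0.41 and 0.39. The ratio was 0.00 in the cluster led by Srm and Cluh and -0.28 (-1.52 to 0.94) in the one led by Hspa1b and Gpnmb. In the Igkc-led cluster it was -0.43, from 5 and 7 UMIs, too few to be counted.

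Havcr2 encodes TIM-3, which in the myeloid lineage is best known from dendritic cells. The highest levels were found in cDC2-like cells, at 363 CPM (313 to 420) and 350 CPM (294 to 414), and in cDC1-like cells, at 324 CPM (262 to 397) and 349 CPM (275 to 436). These neighbours did not differ beyond their intervals in either library. Mature dendritic-like cells held 1 and 3 Havcr2 UMIs (7.99 and 33.9 CPM). Monocyte-like cells followed with 205 and 212 CPM, and the 7 and 21 mast cell-like or basophil-like cells had 273 CPM (118 to 538) and 179 CPM (85.7 to 329). Plasmacytoid dendritic-like cells held none in either library, which allows up to 75.8 and 128 CPM.

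In macrophage-like cells Havcr2 had 2699 and 3329 UMIs, or 126 CPM (121 to 131) and 154 CPM (149 to 159). The log2 ratio was 0.29 (0.22 to 0.37), below the fold limit, and positive under all 14 alternatives. It was positive in 8 of 9 macrophage-like clusters, whose ratios ran up to 0.55 in the cluster led by the interferon-stimulated gene Ifit3. The exception was the cluster led by Retnla and Cbr2, where Havcr2 was lowest, at 52.7 CPM (20 UMIs) and 19.6 CPM (8 UMIs), a log2 ratio of -1.42 (-2.82 to -0.18).

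CD8 T-like cells had 74 and 171 Havcr2 UMIs, or 94.0 CPM (73.8 to 118) and 141 CPM (121 to 164). The log2 ratio was 0.58 (0.18 to 1.00). C1q and Apoe UMIs summed to 170 and 135 CPM in these cells, and for 100 of them there were 55.2 and 104 Havcr2 UMIs, against 0.847 and 0.868 in macrophage-like cells. A cluster led by the granzymes Gzme, Gzmg and Gzmd had the highest Havcr2 level and comprised 3 Lmo7+/+ cells (2 UMIs) and 23 cells labelled Lmo7-/- (33 UMIs, 357 CPM). Without it the ratio was 0.41 (-0.02 to 0.84). In the CD8 T-like cluster that was not led by cell cycle genes the levels were 130 and 149 CPM (0.19, -0.37 to 0.77), and in cycling CD8 T-like cells they were 63.1 and 105 CPM (0.74, 0.08 to 1.44). With marked doublets removed the ratio was 0.30 (-0.13 to 0.75), so that the CD8 difference kept its direction under all 14 alternatives but not its distance from 0.

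Regulatory T-like cells had 6 and 21 Havcr2 UMIs, or 35.8 CPM (13.1 to 77.9) and 116 CPM (71.9 to 178), which gives a log2 ratio of 1.70 (0.34 to 3.30) that ran from 1.28 to 2.21 over the alternatives. These UMIs came from 6 and 15 cells. NK-like cells held 5 and 2 UMIs. Tumor cell-like cells were at 1.61 and 1.81 CPM.

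**Figure D2:**
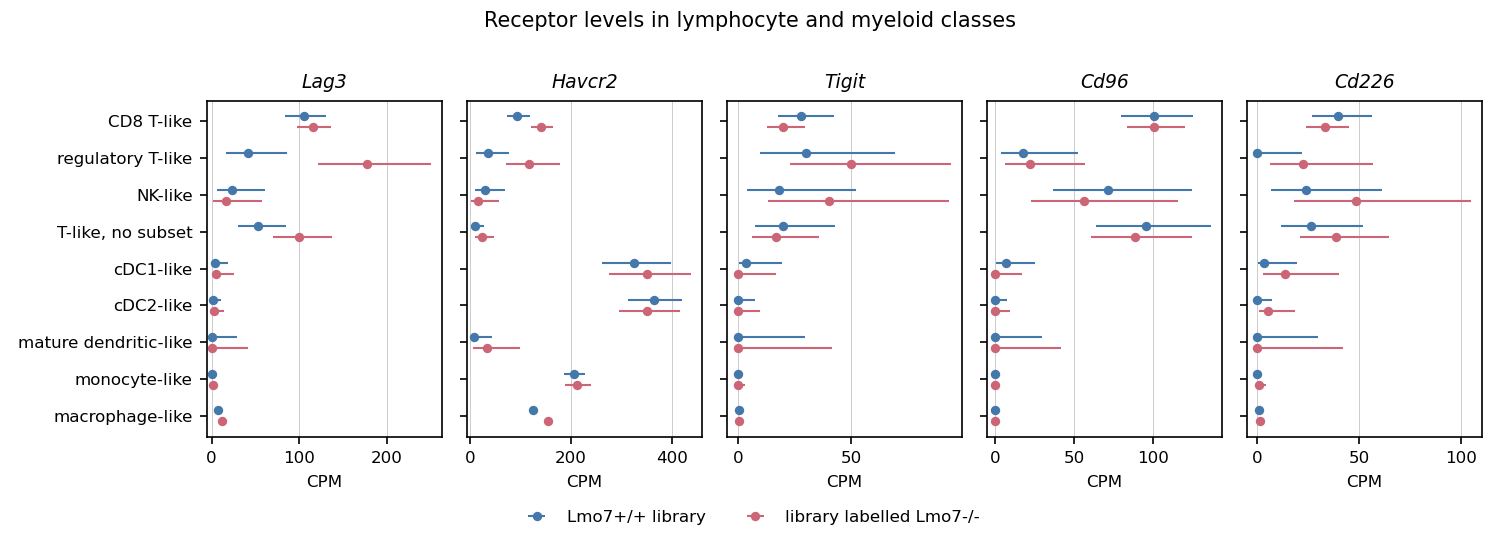
CPM of 5 receptor genes (panels) in 9 lymphocyte and myeloid classes (rows), with 1 point per library and exact 95% Poisson intervals for counting error. Havcr2 was highest in cDC1-like and cDC2-like cells, Lag3 in regulatory T-like cells stood at 41.7 and 177 CPM, and Tigit, Cd96 and Cd226 were near 0 in the monocyte-like and macrophage-like rows.

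Upstream sequence is shown for Havcr2 and Tigit, inhibitory receptors that contrasted by class, the former in myeloid and T-like cells and the latter, among named classes, mainly in T-like and NK-like cells. Both are the 250 bases before the RefSeq start on GRCm38.p6, written 5′ to 3′ along the gene, with capitals for the matches to the 3 motifs searched on both strands, AP-1 (TGANTCA), RUNX (TGTGGT) and NFAT (GGAAAA).
Havcr2, chr11:46454681-46454930, plus strand: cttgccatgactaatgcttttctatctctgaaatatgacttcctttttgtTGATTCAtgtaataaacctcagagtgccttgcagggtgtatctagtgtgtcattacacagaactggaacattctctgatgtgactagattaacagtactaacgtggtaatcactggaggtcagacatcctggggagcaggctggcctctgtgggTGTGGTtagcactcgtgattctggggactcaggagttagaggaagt
Tigit, chr16:43664185-43664434, minus strand: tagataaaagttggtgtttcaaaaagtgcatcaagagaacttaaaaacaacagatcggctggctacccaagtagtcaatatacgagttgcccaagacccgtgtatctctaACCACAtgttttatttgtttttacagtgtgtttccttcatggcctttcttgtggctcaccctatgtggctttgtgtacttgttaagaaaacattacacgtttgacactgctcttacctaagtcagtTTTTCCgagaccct
The Havcr2 window held an AP-1 match at base 51 and a RUNX match at base 205, and the Tigit window a RUNX match at base 111 and an NFAT match at base 237, both on the opposite strand. Among 32817 windows of the same length, 6.75% held the AP-1, 14.0% the RUNX and 20.4% the NFAT letters, so that single matches are common. A match describes the letters only.

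In the GENCODE vM21 annotation of GRCm38, Havcr2 lies at chr11:46454935-46481255 and Tigit at chr16:43648867-43664146, and Cd96, a relative of Tigit in ligand use, lies on the same chromosome at chr16:46035657-46120251. Lag3 lies at chr6:124904361-124911705 and Cd226 at chr18:89176967-89272229. The receptor genes overlap no other annotated gene. The ligand genes Nectin2 (chr7:19716644-19750483) and Pvr (chr7:19903578-19921160) are neighbours on the minus strand, 153095 bases apart, and Lgals9 is at chr11:78962974-78984946. Vsir (chr10:60346851-60372684) lies within Cdh23, which is on the other strand and had 12 and 16 UMIs in macrophage-like cells.

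Tigit, the inhibitory receptor for PVR and NECTIN2, was sparse. CD8 T-like cells had 22 and 24 UMIs, or 28.0 CPM (17.5 to 42.3) and 19.8 CPM (12.7 to 29.4), which gives a log2 ratio of -0.50 (-1.40 to 0.40) just inside the fold limit. It was below 0 under all 14 alternatives and reached -1.05 (-2.29 to 0.13) in the CD8 T-like cluster not led by cell cycle genes, so that no difference was detectable at this depth. Regulatory T-like cells held 5 and 9 UMIs (29.8 and 49.8 CPM), NK-like cells 3 and 5 (17.8 and 40.1 CPM) and unnamed T-like cells 6 and 6 (19.7 and 16.5 CPM). The intervals of these classes overlapped, and no other named class held more than 2 Tigit UMIs in a library, while the clusters that could not be named held 10 and 12.

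Cd96, a receptor that binds PVR on T and NK cells, had close levels in the CD8 T-like cells of the libraries, with 100.4 CPM (79.5 to 125) and 100.6 CPM (83.5 to 120). The log2 ratio was 0.00 with an interval from -0.42 to 0.43. Unnamed T-like cells had 95.05 and 88.2 CPM and NK-like cells 71.4 CPM (36.9 to 125) and 56.2 CPM (22.6 to 116), and these classes could not be ordered within their intervals. Regulatory T-like cells stood at 17.9 CPM (3.69 to 52.3) and 22.1 CPM (6.03 to 56.6), with 3 and 4 UMIs. That was below the CD8 T-like cells in both libraries, while the intervals overlapped those of the NK-like cells. Macrophage-like cells held 1 UMI per library.

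Cd226, the activating receptor for PVR and NECTIN2, had 31 and 40 UMIs in CD8 T-like cells, or 39.4 CPM (26.8 to 55.9) and 33.0 CPM (23.6 to 44.9), which gives a log2 ratio of -0.26 (-0.97 to 0.47). NK-like cells held 4 and 6 UMIs (23.8 and 48.2 CPM) and unnamed T-like cells 8 and 14 (26.2 and 38.6 CPM). Regulatory T-like cells held none in the Lmo7+/+ library, which allows up to 17.9 CPM, and 4 UMIs (22.1 CPM) in the other. In macrophage-like cells 12 and 28 UMIs were found, at 0.559 and 1.30 CPM, with a log2 ratio of 1.21 (0.19 to 2.32). Of these, 7 and 20 lay in the 78 and 88 cells of the Retnla-led cluster, where Cd226 stood at 18.4 and 49.1 CPM (log2 ratio 1.41, 0.11 to 2.90). Without that cluster 5 and 8 UMIs remained in macrophage-like cells, fewer than the 20 needed to be counted, and the ratio was 0.67 (-1.12 to 2.63).

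As a share of the UMIs of Tigit and Cd226 together, Tigit made up 41.5% (28.1 to 55.9) and 37.5% (25.7 to 50.5) in CD8 T-like cells and 69.2% (38.6 to 90.9) in regulatory T-like cells of the library labelled Lmo7-/-. Cd96 made up 71.8% (62.4 to 80.0) and 75.3% (67.9 to 81.7) of Cd96 and Cd226 in CD8 T-like cells, and 75.0% and 53.8% in NK-like cells, from 16 and 13 UMIs. The intervals of each balance overlapped between the libraries. How well each transcript is captured was not measured, so the shares compare libraries and classes rather than the receptors.

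Per cell, the receptors were compared after each cell was thinned to 1000 UMIs, which left out no cell. Averaged over all possible draws, Lag3 was found in 10.6% and 12.8% of CD8 T-like cells, Havcr2 in 9.76% and 13.0%, Cd96 in 8.98% and 9.90%, Cd226 in 4.41% and 3.35%, and Tigit in 3.38% and 2.45%. A single draw gave 11.0% (7.39 to 15.6) and 11.9% (8.84 to 15.6) for Lag3, 12.2% and 10.9% for Havcr2, 12.2% and 10.3% for Cd96, 5.71% and 2.39% for Cd226, and 4.90% (2.56 to 8.40) and 2.12% (0.92 to 4.14) for Tigit. The draw and the average ran in opposite order between the libraries for Havcr2 and Cd96, and no order between the libraries is read from the draw for any receptor. Without thinning the shares were 25.7% and 29.4% for Lag3, 21.6% and 30.5% for Havcr2, 22.9% and 25.7% for Cd96, 11.0% and 8.22% for Cd226, and 8.16% and 6.10% for Tigit. In tumor cell-like cells, which should lack these receptors, the unthinned share was 0.253% and 0.217% for Lag3 and 1.29% and 1.37% for Havcr2, and the average over thinned draws was 0.0846% and 0.0449% for Lag3. Median depths were 2495 and 2585 UMIs in CD8 T-like and 5292 and 5231 UMIs in tumor cell-like cells.

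Lag3, Havcr2 and Tigit were rarely seen in the same CD8 T-like cell at this depth. In the single thinned draw, 74.3% and 76.7% held none of them, 23.3% and 21.8% held 1, 2.45% and 1.59% held 2, and no cell held all 3. The products of the single shares were 74.3% and 76.8% for none, 23.4% and 21.5% for 1 and 2.29% and 1.70% for 2. The observed shares lay near those products in this draw, and the 6 cells with 2 receptors in each library allow no finer statement.

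Lgals9 encodes galectin-9, a secreted lectin that binds TIM-3. Endothelial-like cells (99 and 73 cells) had the highest level of the named classes, at 427 CPM (371 to 489) and 549 CPM (480 to 625), which gives a log2 ratio of 0.36 (0.08 to 0.64). Monocyte-like cells followed with 259 CPM (237 to 284) and 203 CPM (179 to 229), macrophage-like cells with 225 CPM (219 to 232) and 179 CPM (174 to 185), and fibroblast-like cells with 190 and 213 CPM. Tumor cell-like cells were at 59.8 and 53.8 CPM and the collagen-led cells with a tumor profile at 85.5 and 71.2 CPM. The mast cell-like or basophil-like cells held 9 and 10 UMIs (307 and 179 CPM), with intervals from 140 to 583 and from 85.7 to 329. Mature dendritic-like cells held 1 UMI per library, while cDC2-like cells had 128 and 97.8 CPM and cDC1-like cells 96.6 and 58.9 CPM.

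The log2 ratio of Lgals9 was -0.33 (-0.39 to -0.27) in macrophage-like cells. Its sign was negative under all 14 alternatives and in all 9 macrophage-like clusters, among which the Ifit3-led cluster was highest (322 and 259 CPM). In monocyte-like cells the ratio was -0.35 (-0.58 to -0.13), but with 20 principal components in place of 30 it was -0.04 (-0.29 to 0.22). In tumor cell-like cells it was -0.15 (-0.23 to -0.07), with -0.32 under the strict filter and -0.07 as a mean over cells. None of these passed the fold limit.

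Pvr, the shared ligand of TIGIT, CD96 and CD226, was widespread. Mature dendritic-like cells had 224 CPM (149 to 323) and 158 CPM (86.5 to 266), monocyte-like cells 183 CPM (164 to 203) and 173 CPM (151 to 198), cDC2-like cells 116 CPM in both libraries, and macrophage-like cells 90.7 and 78.9 CPM. Tumor cell-like cells had 3872 and 2417 UMIs, or 70.0 CPM (67.8 to 72.2) and 62.5 CPM (60.1 to 65.1). Among tumor cell-like clusters Pvr was at 88.8 and 80.8 CPM in the one led by Cdsn and the hypoxia-induced gene Car9, at 57.1 and 53.8 CPM in the cycling one, and at 15.4 and 19.7 CPM in the one led by Cnih2 and Ctxn1, whose cells had a median of 2024 UMIs. In endothelial-like cells Pvr had 86 and 40 UMIs, or 174 CPM (139 to 215) and 97.1 CPM (69.4 to 132), which gives a log2 ratio of -0.84 (-1.42 to -0.28) that ran from -0.92 to -0.75 over 12 alternatives. The ratio was -0.20 (-0.30 to -0.11) in macrophage-like and -0.16 (-0.24 to -0.09) in tumor cell-like cells, where the strict filter gave -0.07 (-0.16 to 0.02). C1q and Apoe summed to 435 and 551 CPM in the endothelial-like cells, and their part in the Pvr values was not tested. CD8 T-like cells held 26 and 27 Pvr UMIs (33.0 and 22.3 CPM), a ratio of -0.57 (-1.40 to 0.26).

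Nectin2, the second ligand of TIGIT and CD226, was mostly outside the hematopoietic classes. Endothelial-like cells had 89.1 CPM (64.7 to 120) and 104 CPM (75.6 to 141), fibroblast-like cells 40.1 and 30.7 CPM, and the collagen-led cells with a tumor profile 30.1 and 29.1 CPM. Tumor cell-like cells had 1455 and 822 UMIs, or 26.3 CPM (24.97 to 27.7) and 21.3 CPM (19.8 to 22.8). Their log2 ratio was -0.31 (-0.43 to -0.18), and it lay between -0.43 and -0.24 under 12 alternatives. Macrophage-like cells were at 4.89 and 6.11 CPM, and no UMI was found in regulatory T-like or NK-like cells. Mature dendritic-like cells held 10 UMIs (79.9 CPM) and 1 UMI (11.3 CPM), with a ratio of -2.82 whose interval ran from -8.26 to -0.01. These UMIs were fewer than the 20 needed to be counted. Those of the Lmo7+/+ library came from 4 cells, with 7 of them in 1 cell, a spread that the interval does not cover.

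Vsir, which encodes the myeloid checkpoint molecule VISTA, was highest in macrophage-like cells among classes of at least 20 cells in each library, at 233 CPM (227 to 240) and 276 CPM (269 to 283), and in monocyte-like cells, at 194 CPM (174 to 215) and 234 CPM (208 to 262). Plasmacytoid dendritic-like cells held 6 and 3 UMIs (152 and 128 CPM). Regulatory T-like cells had 173 CPM (116 to 248) and 138 CPM (89.5 to 204), CD8 T-like cells 58.5 and 69.3 CPM, and tumor cell-like cells 2.33 and 2.12 CPM. In the Lmo7+/+ library, 11 of the 29 Vsir UMIs of regulatory T-like cells came from 1 cell. The log2 ratio was 0.24 (0.19 to 0.30) in macrophage-like and 0.27 (0.04 to 0.50) in monocyte-like cells. Without the H2-M2-led cluster, where Vsir stood at 299.7 and 342.7 CPM, the macrophage-like ratio was 0.13. The Retnla-led cluster went the other way, at 282 and 201 CPM (-0.49, -0.92 to -0.06). The ratio was also below 0 in the Srm-led cluster (-0.16, -0.39 to 0.06) and the H19-led cluster (-0.02, -0.30 to 0.26), with intervals that included 0. In the remaining clusters it was above 0.

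**Figure D3:**
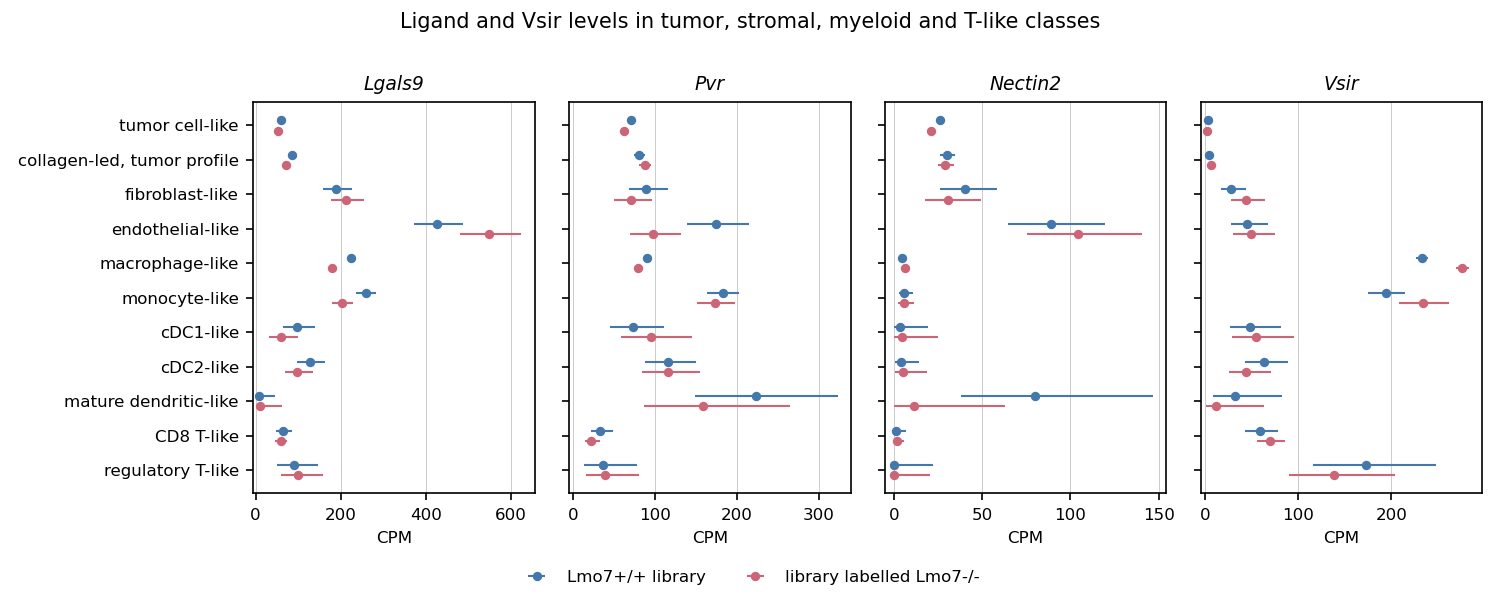
CPM of Lgals9, Pvr, Nectin2 and Vsir (panels) in 11 classes (rows), with 1 point per library and exact 95% Poisson intervals. Lgals9 and Nectin2 were highest in endothelial-like cells, Vsir in macrophage-like cells, and Pvr in endothelial-like cells was lower in the library labelled Lmo7-/- (174 and 97.1 CPM).

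**Figure D4:**
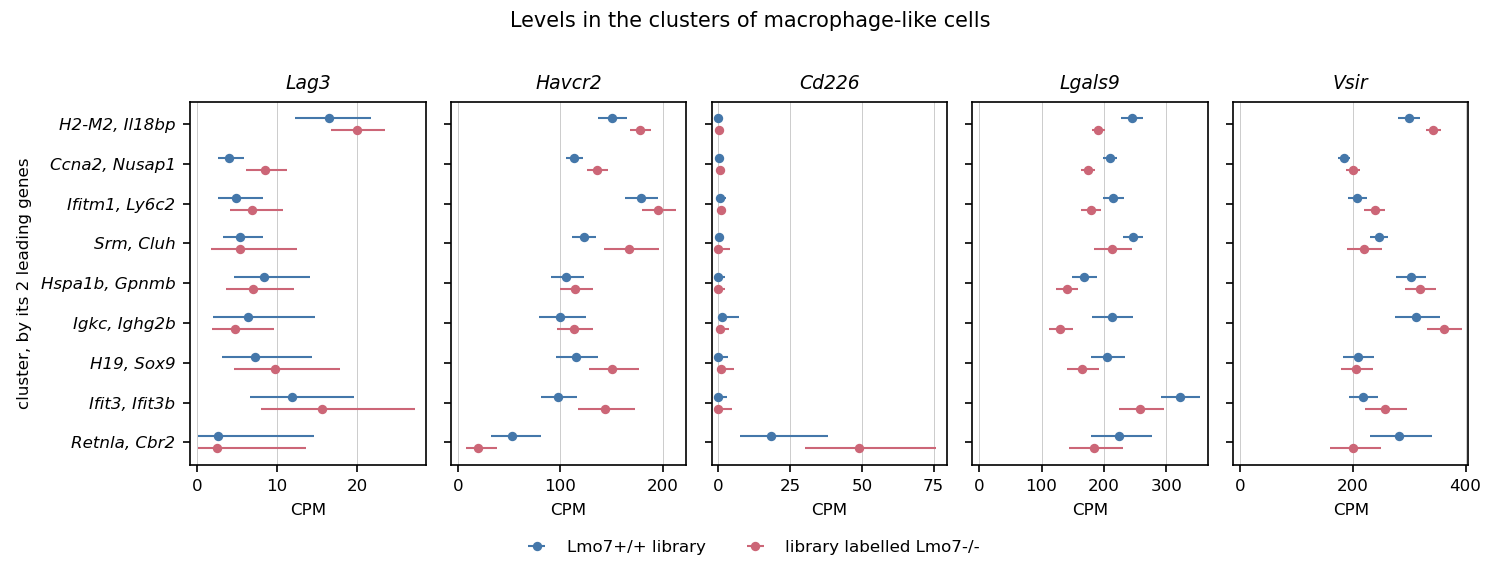
CPM of Lag3, Havcr2, Cd226, Lgals9 and Vsir (panels) in the 9 clusters of macrophage-like cells, each named by its leading genes, with exact 95% Poisson intervals. Lgals9 was lower in the library labelled Lmo7-/- in all 9 clusters, and Cd226 was seen mainly in the cluster led by Retnla and Cbr2.

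Counted over classes, few members passed the fold, and the counts were read against the share of all genes past it in the same class. In tumor cell-like cells 0 of 6 counted members passed, where 10.4% of all genes did. Macrophage-like cells had 2 of 7 (Lag3 and, mostly through the Retnla-led cluster, Cd226, both higher in the library labelled Lmo7-/-) beside 12.3% of all genes, monocyte-like cells 0 of 4 beside 21.1%, and CD8 T-like cells 2 of 8 (Havcr2 higher, Pvr lower) beside 21.1%. Regulatory T-like cells had 2 of 4 (Lag3 and Havcr2, both higher) beside 30.7%. In the smaller classes the counts were 3 of 5 in unnamed T-like cells (27.7% of all genes), 1 of 4 in cDC2-like (28.2%), 1 of 4 in cDC1-like (31.1%), 0 of 1 in mature dendritic-like (38.5%), 0 of 1 in NK-like (30.9%), 2 of 5 in fibroblast-like (32.5%), 1 of 4 in endothelial-like (29.8%) and 1 of 5 in the collagen-led cells (20.4%). The counts in macrophage-like, regulatory T-like and unnamed T-like cells lay farthest above the background share, but each rests on 2 or 3 genes, and no class is read as set apart by its count. The median log2 ratio of the counted members was 0.29 in macrophage-like, -0.06 in CD8 T-like, 0.93 in regulatory T-like and -0.14 in tumor cell-like cells, and over all genes it was -0.09, -0.06, -0.01 and -0.05.

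Scaling by the trimmed mean of M values (TMM) in place of the class total shifted all log2 ratios up by 0.09 in macrophage-like and CD8 T-like cells, 0.06 in monocyte-like and 0.04 in tumor cell-like cells. The share of calls that were higher in the library labelled Lmo7-/- moved from 38.5% to 54.0% in macrophage-like, from 37.1% to 52.0% in CD8 T-like and from 35.9% to 46.0% in monocyte-like cells. The directions of Lag3, Havcr2, Lgals9 and Vsir in macrophage-like cells did not change with it.

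**Figure D5:**
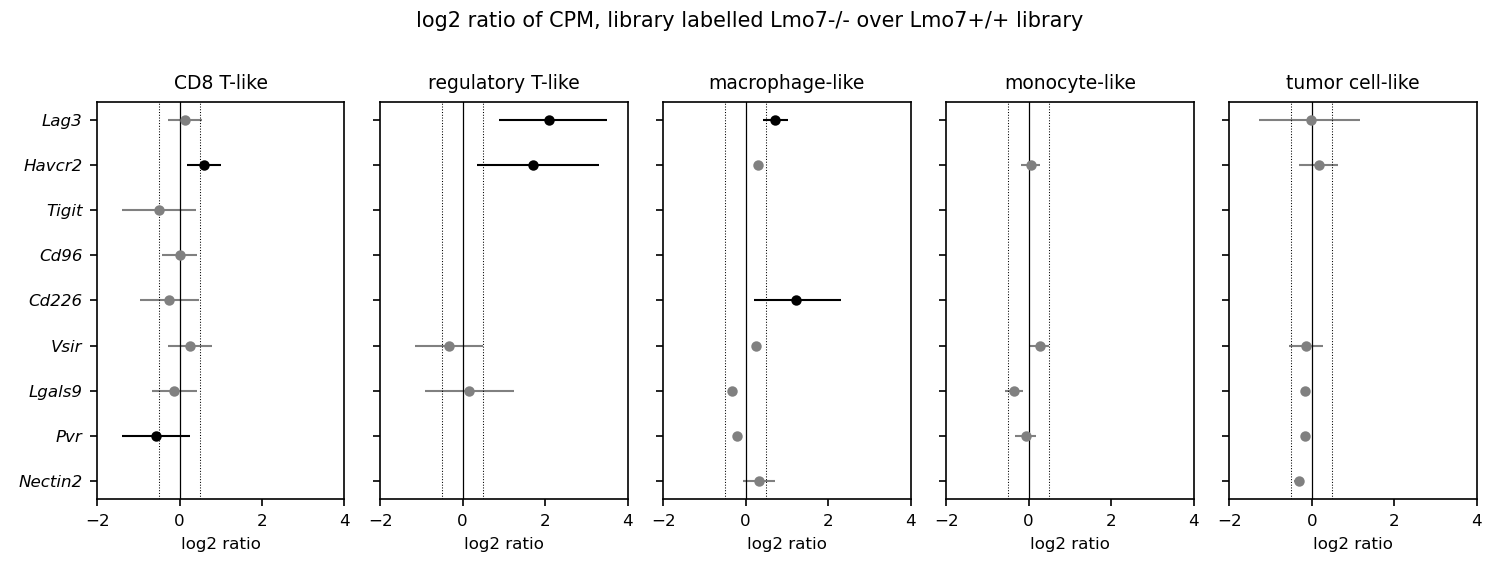
log2 ratio of CPM, library labelled Lmo7-/- over Lmo7+/+ library, for members with at least 20 UMIs in 5 classes (panels), with exact 95% intervals. Dotted lines mark the fold limit of 0.5 and black points lie past it; Lag3 and Havcr2 in regulatory T-like cells were the farthest to the right, at 2.08 and 1.70.

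Around these members, 34 further genes of the same axes were read from fixed lists. In CD8 T-like cells 5 of 21 counted genes passed the fold (21.1% of all genes), in macrophage-like cells 5 of 25 (12.3%) and in tumor cell-like cells 7 of 22 (10.4%). Among LAG3 ligands, the MHC class II chain H2-Aa was highest in cDC2-like cells (16274 and 17367 CPM), followed by cDC1-like cells (14796 and 16302 CPM), and macrophage-like cells had 9541 and 13375 CPM (log2 ratio 0.49). In tumor cell-like cells H2-Aa, H2-Ab1 and H2-Eb1 were at 303 and 508, 250 and 380, and 148 and 233 CPM, with ratios of 0.74, 0.61 and 0.66. C1q and Apoe summed to 136 and 122 CPM in those tumor cell-like cells, against 14843 and 17767 CPM in macrophage-like cells, and the part of free macrophage RNA in the MHC class II values was not tested. In CD8 T-like cells H2-Ab1 and H2-Eb1 went the other way, with ratios of -0.58 and -0.68. Lgals3, a galectin that also binds LAG3, was at 380 and 615 CPM in tumor cell-like (0.70) and 272 and 473 CPM in CD8 T-like cells (0.80). Fgl1 had at most 3 UMIs in these 3 classes, and Clec4g was at 0 in all of them.

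Of the TIM-3 partners, Hmgb1 was the most abundant, at 1124 and 1091 CPM in tumor cell-like cells, and Ceacam1 had 84 and 57 UMIs in macrophage-like cells (3.91 and 2.64 CPM, -0.57, -1.08 to -0.07). Timd4, a TIM family receptor for phosphatidylserine, held 8 and 13 UMIs there. In the nectin family, the adhesion molecule Cadm1, itself a cDC1 marker, was at 459 and 594 CPM in cDC1-like and at 406 and 510.1 CPM in macrophage-like cells (0.33), Nectin3 at 36.5 and 36.7 CPM in tumor cell-like cells, and Crtam, the receptor of CADM1, at 21.6 and 19.8 CPM in CD8 T-like cells. Pvrig, another receptor of NECTIN2, had 3 UMIs per library in CD8 T-like cells. Selplg, a partner of VISTA, was highest in NK-like cells (1403 and 1397 CPM) and was at 819.7 and 904 CPM in CD8 T-like cells. Lck, the T cell kinase that binds TIM-3, and Timd4, Ctla4 and Nectin3 were also past the fold in macrophage-like cells, each on at most 29 UMIs in a library, with intervals that included 0.

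Other receptors seen on exhausted T cells were set beside Lag3 and Havcr2. In CD8 T-like cells Ctla4 was at 139 and 203 CPM (0.55, 0.22 to 0.89) and Pdcd1, which encodes PD-1, at 529 and 701 CPM (0.41, 0.24 to 0.58), while Cd160, Cd244a, Entpd1 and Tox had intervals that included 0. Unlike those of Havcr2, these ratios were neither split by CD8 T-like cluster nor recomputed under the alternatives, and Pdcd1 was among the markers that named the class. With its own cell classes, the study reported Ctla4 and Pdcd1 as lower in CD8 T cells of Lmo7-/- mice. In regulatory T-like cells, where Lag3 and Havcr2 were higher in the library labelled Lmo7-/-, Ctla4 was higher too (882 and 1283 CPM, 0.54), but Pdcd1 was lower (274 and 144 CPM, -0.93, -1.68 to -0.21), as was Tox, a transcription factor of exhaustion (131 and 49.8 CPM, -1.40, -2.70 to -0.22). Nr4a2 was also lower past the fold there. Of 18 counted axis genes 8 passed the fold in these cells, 4 higher and 4 lower, beside 30.7% of all genes. Among phosphatases recruited by these receptors, Ptpn6 was at 245 and 257 CPM in CD8 T-like cells and Ptpn11, which encodes SHP-2, at 96.6 and 58.5 CPM (-0.72, -1.21 to -0.24). In tumor cell-like cells Inpp5d (150 and 70 UMIs, -0.58), Cd244a (154 and 181 UMIs, 0.75) and Pdcd1 (9 and 18 UMIs, 1.52) passed the fold, each below 5 CPM.

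The class patterns were compared over 22 profiles, the summed log2(CPM + 1) of 11 classes with at least 50 cells in each library, which share their libraries and differ in depth. As descriptions over 13187 genes, the genes most like Lag3 were Lat (Pearson r = 0.93), Cd3e and Icos, and those most like Cd96 were Sh2d1a (0.98), Ctsw and Trbc1. Cd226 was closest to Klre1 (0.89), Prf1 and Gm19585. Havcr2 went with Stap1 (0.93), Ptpn1 and Il10ra, Vsir with Pycard (0.94), Ucp2 and Skil, and Lgals9 with Adcy4 (0.89), Smad6 and Scarf1. Pvr was closest to Arhgef11 (0.92), Myo1c and Sdc3, and Nectin2 to Exoc3l4 (0.98), Uaca and Sept10. Among the members, Tigit and Cd96 had the highest correlation (0.94), followed by Lag3 with Tigit (0.89) and with Cd96 (0.88), and Vsir and Havcr2 reached 0.78 and Pvr and Nectin2 0.67. Havcr2 had r = 0.31 with Lag3 and 0.11 with Tigit.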

How the data were processed

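Single-cell RNA sequencing libraries, 1 from Lmo7+/+ and 1 from Lmo7-/- hosts, were read as the deposited matrices of UMI counts per gene and droplet. Per the labels, the authors aligned reads to mm10 with Cell Ranger 2.1.1, while the matrix headers name software version 3.0.0, and the barcodes have 24 bases. The study's methods name Seurat 5.0 with log normalization, and cell filter thresholds were not given in the sources used here. The deposited counts were not normalized.

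Droplets under 500 genes or 1000 UMIs, or over 15% mitochondrial UMIs, were removed. Counts were log-normalized, and 2000 variable genes were chosen with scanpy 1.11.5, without the 9 members and 34 axis genes. From these, 30 principal components and 20 neighbours were computed with scikit-learn 1.9.0. Louvain clustering of the shared-neighbour graph was run in igraph 0.11.9 at a resolution of 0.5 (1.0 for lymphoid cells). Clusters were called X-like from marker lists, by limits chosen once the data had been seen, so names may differ from the study's own. Scrublet marked 3.26% and 2.89% of the kept cells as doublets, and these were kept. The members, lists and tests were chosen with earlier results of these data known. The named genes were the 9 members, the axis genes with a log2 ratio of at least 0.5 in size and an interval without 0 in CD8 T-like, macrophage-like or tumor cell-like cells, the highest axis genes and the 3 genes with the most similar pattern for each member with at least 100 UMIs. Others were named after their values were seen.

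UMIs were summed per class and library and divided by the class total (CPM). Intervals were exact Poisson for levels, and exact binomial (Clopper-Pearson) for log2 ratios and shares, at 95%, and they cover counting error only. A count of 0 was given the upper limit that 3 counts set, and no ratio was formed where both libraries had 3 UMIs or fewer. No test between genotypes was made. TMM factors came from edgeR 4.0.16. The scripts were tested on simulated data. Positions were taken from GENCODE vM21 (GRCm38), where 32158 of 32285 gene IDs were found, and upstream sequences from RefSeq (GRCm38.p6), where 6 of the 9 members matched by symbol.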

Additional observations from a re-analysis of the deposited data

How the results depend on the processing

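No paired analysis was possible because there was 1 library per genotype, and for the same reason no library could be left out. Over the alternatives 675 values were recomputed, of which 604 stayed within their interval or within 1.5 times a count, 71 moved and 0 were called reversed. A ratio could be called reversed only where its main interval left out 0. Some ratios whose main interval included 0 did change sign. In CD8 T-like cells Vsir was above 0 under 9 alternatives and below 0 under 5, and Cd96 under 7 and 7. The cause of these moves was not tested. With the lenient filter, macrophage-like cells of the library labelled Lmo7-/- had 189 CPM of Lgals9 and 261 CPM of Vsir. With the strict filter, tumor cell-like Pvr was at 73.3 and 69.8 CPM (ratio -0.070), Nectin2 at 28.3 CPM in the Lmo7+/+ library, and 2 members passed the fold there. With doublets removed, Havcr2 in macrophage-like cells had a ratio of 0.39, Pvr was at 75.0 and 68.8 CPM, Nectin2 at 30.1 CPM, Vsir at 243 and 291 CPM, and 1 member passed in tumor cell-like cells. Resolution 1.0 gave a macrophage-like Havcr2 ratio of 0.40 and Vsir at 246 and 295 CPM. With 20 principal components Pvr was at 66.1 CPM, Vsir at 241 and 287 CPM, and 1 member passed in CD8 T-like cells. With axis genes allowed among the variable genes, the Havcr2 ratio was 0.40, Pvr was at 73.7 and 69.1 CPM, Nectin2 at 28.4 and 23.3 CPM, Vsir at 249 and 297 CPM, and 1 member passed in tumor cell-like cells. TMM scaling gave macrophage-like ratios of 0.39 for Havcr2, -0.24 for Lgals9 and 0.34 for Vsir. With at least 100 UMIs, 1 member passed the fold in CD8 T-like and 1 in macrophage-like cells, as did 1 axis gene in macrophage-like cells. No member reached 100 UMIs in regulatory T-like cells, so the count of 0 there was fixed by that limit. At a fold limit of 1, 0 members passed in CD8 T-like and 1 in macrophage-like cells. For axis genes the counts at this limit were 0, 1 and 1 in CD8 T-like, macrophage-like and tumor cell-like cells. The shares of all genes given earlier belong to the main setting. No count of members or axis genes under an alternative is therefore read as a result. Without the H2-M2-led cluster, an alternative chosen after seeing the data as were those without shared barcodes and without other single clusters, the Vsir ratio was 0.13. Thinned to 1500 UMIs, which left out 40 and 64 CD8 T-like cells, Lag3 and Havcr2 were each found in 18.5% of CD8 T-like cells labelled Lmo7-/- and at least 2 of 3 receptors in 5.11%. Without thinning the shares were 25.7% and 29.4% for Lag3, 21.6% and 30.5% for Havcr2, 6.10% for Tigit in the library labelled Lmo7-/-, and 9.80% and 12.2% for at least 2 of 3. No cDC2-like class could be named under the lenient and strict filters or with axis genes allowed, the plasmacytoid dendritic-like class was not named in any other clustering, and the collagen-led class was not named under the strict filter. A CD4 T-like class, not named in the main setting, was named under the lenient filter (54 and 78 cells) and with doublets removed (60 and 75). It was also named with 20 principal components (55 and 69) and with axis genes allowed (60 and 81). Depth limits Tigit and Cd226 most, and classes under 100 cells.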
